A study of Mus musculus with 12 samples.

Results

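The aryl hydrocarbon receptor (AhR) pathway was followed through 6 genes, taken by gene name from the count table of the colon: the receptor gene Ahr, its partner Arnt, the repressor Ahrr, and the target genes Tiparp, Cyp1a1 and Cyp1b1. They were 6 of the 54532 genes in the table, and 5 of them passed the filter on low counts that left 16904 genes to be tested; Cyp1b1 did not. RNA-Seq covered the colons of male, wild-type C57BL/6J mice that entered the study at 5 weeks of age, in 4 groups of 3 mice. Colitis was induced with dextran sodium sulfate (DSS), which damages the lining of the colon: the control mice were left without it, the model group had it alone, the Rhy group had it with the alkaloid rhynchophylline (Rhy), and the DXM group had it with the glucocorticoid dexamethasone (DXM, 4 mg/kg). Rhy was given at 2, 4 or 8 mg/kg in the study, and the labels do not say which dose the sequenced mice received. The study proposed that Rhy acts on the gut barrier through AhR and the nuclear receptor Nr4a1, so the comparison of the Rhy group with the model group asked whether the pathway genes differed with Rhy.

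AhR is a transcription factor that waits in the cytosol, bound to chaperones, until it binds a small molecule such as a dietary indole, a microbial tryptophan metabolite or a dioxin. It then enters the nucleus, pairs with the ARNT protein and binds DNA at a short element with the core GCGTG, and Cyp1a1 is the target most used as a readout of its activity. AhR also turns on its own brakes: the CYP1 enzymes break down its ligands, the AHRR protein competes for ARNT and for the element, and TIPARP modifies the receptor and lowers its activity.

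The promoters of the target genes are shown because the receptor acts by binding the core element and because the targets differed so much in how steady their levels were. Of the 6 genes, 5 had a promoter in the RefSeq sequence table, on GRCm38.p6, and Ahr did not. Each line gives the 250 bases before the transcription start, 5′ to 3′ on the gene's strand, in lower case, with every core element in capitals: GCGTG, or CACGC where it lies on the opposite strand.
Cyp1a1 (chr9:57697363-57697612, + strand): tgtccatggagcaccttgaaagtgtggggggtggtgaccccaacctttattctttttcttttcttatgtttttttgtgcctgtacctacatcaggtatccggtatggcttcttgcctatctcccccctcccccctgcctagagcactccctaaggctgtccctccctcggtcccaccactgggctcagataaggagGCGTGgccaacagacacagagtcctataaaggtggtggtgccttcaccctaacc
Ahrr (chr13:74292332-74292581, - strand): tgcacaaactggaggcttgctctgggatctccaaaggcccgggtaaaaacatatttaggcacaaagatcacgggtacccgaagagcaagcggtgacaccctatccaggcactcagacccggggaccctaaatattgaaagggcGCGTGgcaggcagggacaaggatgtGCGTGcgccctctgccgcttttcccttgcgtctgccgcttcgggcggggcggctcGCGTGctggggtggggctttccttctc
Cyp1b1 (chr17:79715062-79715311, - strand): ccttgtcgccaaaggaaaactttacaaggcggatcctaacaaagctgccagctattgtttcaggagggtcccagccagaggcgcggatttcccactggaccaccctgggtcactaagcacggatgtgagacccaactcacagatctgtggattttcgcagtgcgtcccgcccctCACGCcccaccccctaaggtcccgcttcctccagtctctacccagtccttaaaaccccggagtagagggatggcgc
Tiparp (chr3:65528197-65528446, + strand): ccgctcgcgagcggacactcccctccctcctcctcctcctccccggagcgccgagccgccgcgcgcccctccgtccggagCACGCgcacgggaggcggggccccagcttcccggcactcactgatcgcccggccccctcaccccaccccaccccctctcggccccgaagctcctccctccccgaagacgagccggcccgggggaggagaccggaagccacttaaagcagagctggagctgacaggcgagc
Ahrr held 3 cores in its window, beginning 107, 82 and 27 bases before the start. The other 3 genes held 1 core each, which began 54 bases before the start in Cyp1a1, 76 in Cyp1b1 and 170 in Tiparp. Arnt, whose promoter is not printed, also held 1. A core was found in 28.2% of the 32851 promoter windows of this length, and 2 or more cores in 8.63%. The longer form TNGCGTG, searched on both strands and always overlapping a core, was found once, in Ahrr, and in 4.1% of all windows. These matches describe letters in a window and not bound sites. Bases farther from the start were not searched, so the counts are not those of all elements of a gene.

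The libraries held 14346478 to 17749716 counted reads, and levels are in CPM, counts scaled to the size of each library by the TMM method, where 3 reads made 0.145 to 0.257 CPM. Group differences are log2 fold changes from edgeR's quasi-likelihood test on all 12 libraries, with Benjamini-Hochberg adjustment over the 16904 genes. The colon epithelial markers were all present: summed over 11 genes they ranged from 14730 to 38720 CPM, with Epcam at 1144 to 2207 CPM. Hoxb13, a gene of the distal colon, was at 72 to 316 CPM in 9 libraries and at 0.165 CPM in control 3, 1.49 CPM in model 3 and 0 in Rhy 1. Model 1 and model 2 resembled each other more closely than other libraries did, with a common dispersion of 0.002 against 0.0587 to 0.325 in the other 65 pairs. They differed by more than counting noise and were kept as 2 libraries, but averaged for the relations between genes. Whether they share a source was not tested, and a difference beyond counting noise cannot decide it. If they do, the model group holds fewer than 3 independent mice, and its SD, p-values and intervals can be too small. No gene of the 16904 had an adjusted p under 0.05 in any of the 6 comparisons or in the joint test of the 4 groups, so 0% were called in each, and 0 of the 5 tested pathway genes were called. DESeq2 on all libraries called 5 to 1059 genes over the 6 comparisons, with no pathway gene among them. At an unadjusted p under 0.05, 9.62% of all genes passed between the model and control groups, 3.72% between Rhy and model, 7.69% between DXM and model, 11.6% between Rhy and control, 18.9% between DXM and control, 17% between all DSS groups and control, and 11.5% in the joint test. None of the 5 pathway genes passed any of these. Cyp1a1 passed the unadjusted threshold in some other settings. Among them were the fit with the filter lifted, given below with Cyp1b1, and DESeq2 on only the DXM and model groups. The joint test gave Cyp1a1 a p of 0.143, and Ahr, Arnt, Ahrr and Tiparp p of 0.505 to 0.622.

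Per length of gene, in the deposited FPKM, the median over the 12 libraries was 6.38 for Cyp1a1, 4.92 for Tiparp, 3.73 for Arnt, 2.71 for Ahr, 0.385 for Ahrr and 0.0684 for Cyp1b1. Ahr, Arnt and Tiparp were mid-level genes of this tissue, above 46.1, 53.2 and 59.4% of the tested genes. Ahrr stood above 13.4% and Cyp1b1 above 1.18%. The spread across mice set Cyp1a1 apart from the rest. Its biological coefficient of variation, the spread between mice of 1 group as a share of the mean, was 1.104 in the edgeR fit, larger than in 99.12% of the genes. It was 0.2155 for Ahr, 0.2213 for Tiparp and 0.2264 for Arnt, below the median of 0.3073 over all genes, and 0.3514 for Ahrr, above it. These values were larger than in 17.17, 19.88, 22.02 and 60.53% of the genes.

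**Figure D1:**
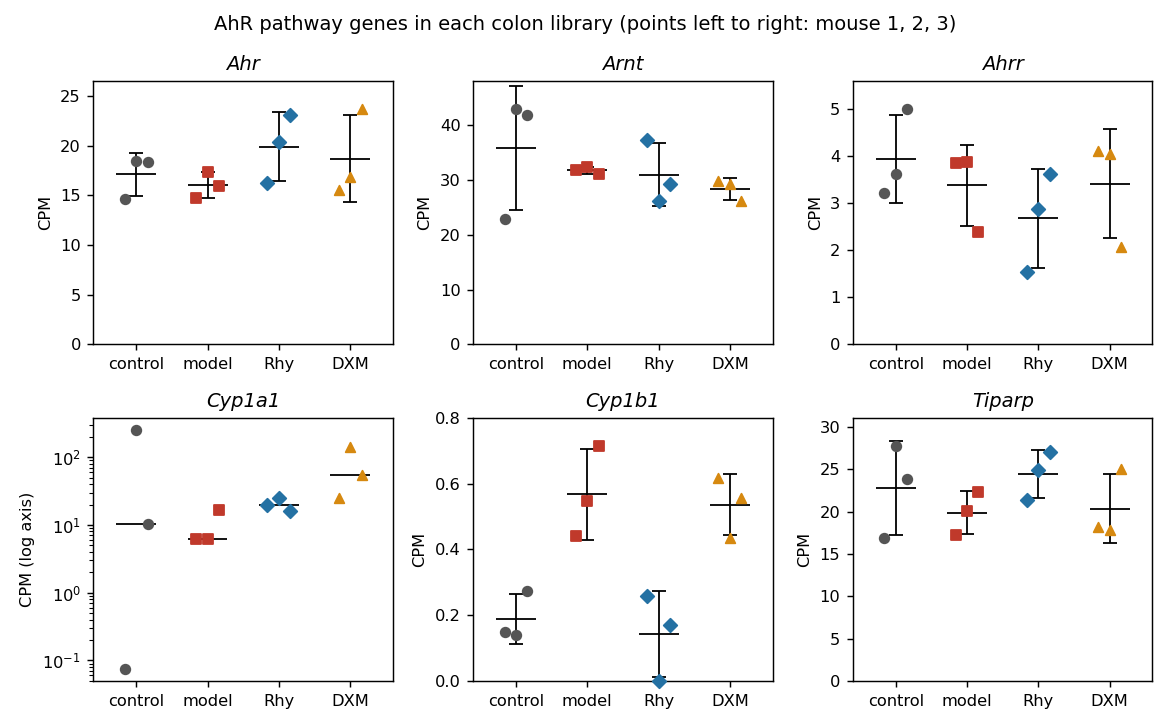
Expression of the 6 AhR pathway genes in each of 12 colon libraries, in CPM, by group, with 3 mice a group and 1 point a mouse; bars are the mean and SD, and for Cyp1a1, drawn on a log axis, the median. Ahr, Arnt and Tiparp stayed within a 1.88-fold range, while Cyp1a1 ran from 0.0749 to 254 CPM, both in control mice.

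Ahr (ENSMUSG00000019256, chr12:35497974-35535038 of GRCm38, minus strand), the receptor, was the steadiest of the genes. It was at 14.6, 18.4 and 18.3 CPM in the control mice, 14.8, 17.4 and 16 CPM in the model mice, 16.3, 20.4 and 23.1 CPM in the Rhy mice, and 15.6, 16.9 and 23.7 CPM in the DXM mice. The highest library was 1.62 times the lowest, and every pair of groups overlapped. Between the Rhy group (19.9 ± 3.46 CPM, SD, n = 3) and the model group (16 ± 1.32 CPM) the log2 fold change was 0.31, with a 95% confidence interval of -0.16 to 0.78 (edgeR adjusted p = 1). The interval reaches from 0.897-fold to 1.72-fold. It was -0.09 (-0.56 to 0.38) between the model and control groups and 0.22 (-0.25 to 0.69) between the DXM and model groups, with adjusted p of 0.913 and 0.8 in edgeR. The lincRNA gene Gm48236 overlaps Ahr on the opposite strand, and reads of the 2 genes can be told apart only if the counting used strand, which is not given in the sources used here.

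Arnt (ENSMUSG00000015522, chr3:95434388-95497240, plus strand) encodes the partner that AhR needs to bind DNA. Its levels were 22.8, 43.0 and 41.9 CPM in the control mice, 31.9, 32.3 and 31.1 CPM in the model mice, 37.4, 26.2 and 29.3 CPM in the Rhy mice, and 29.8, 29.3 and 26.1 CPM in the DXM mice. The 3 DXM mice lay below all 3 model mice, while the control mice lay on both sides of every other group. Groups that do not overlap were found for 22.6% of all genes between DXM and model, and the log2 fold change was -0.16 (95% confidence interval -0.67 to 0.35, edgeR adjusted p = 0.877). The fold changes between model and control (-0.18) and between Rhy and model (-0.04) had intervals that crossed 0. Control 1 was the lowest of the 12 libraries and control 2 the highest, so the widest differences in Arnt were between mice of the same group.

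Ahrr (ENSMUSG00000021575, chr13:74211118-74292331, minus strand), the repressor, was low throughout, at 18 to 91 reads a library. It was at 3.22, 3.62 and 5.00 CPM in the control mice and at 3.86, 3.88 and 2.38 CPM in the model mice. The Rhy mice had 1.54, 2.87 and 3.62 CPM and the DXM mice 4.11, 4.05 and 2.08 CPM. All groups overlapped. The log2 fold change was -0.23 between model and control (95% confidence interval -1.11 to 0.66), -0.32 between Rhy and model (-1.22 to 0.57) and 0.01 between DXM and model (-0.87 to 0.90), with adjusted p of 0.886 to 1 in edgeR. The promoter with the most core elements thus belonged to a target with little RNA in every group.

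Tiparp (ENSMUSG00000034640, chr3:65528410-65555518, plus strand), the ADP-ribosyltransferase that restrains AhR, was nearly as steady as the receptor. The control mice had 16.8, 27.8 and 23.8 CPM and the model mice 17.3, 20.1 and 22.3 CPM. The Rhy mice had 21.3, 24.9 and 27.0 CPM and the DXM mice 18.2, 17.8 and 25 CPM. The groups overlapped in every comparison. The log2 fold change between Rhy and model was 0.30 (95% confidence interval -0.19 to 0.79, edgeR adjusted p = 1), about the same size as that of Ahr. It was -0.20 (-0.69 to 0.29) between model and control and 0.03 (-0.45 to 0.52) between DXM and model.

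Cyp1a1 (ENSMUSG00000032315, chr9:57687928-57703824, plus strand), the monooxygenase that clears AhR ligands, differed more between control mice than between any groups. Control 1 had 1 read, or 0.0749 CPM, control 2 had 3654 reads, or 254 CPM, and control 3 had 10.4 CPM. The ratio of control 2 to control 1 was 3390, with a 95% interval of 609 to 134000 that covers counting error only. The model mice had 6.18, 6.13 and 16.6 CPM, the Rhy mice 19.5, 25.2 and 16.3 CPM, and the DXM mice 24.7, 142 and 54.9 CPM. The lowest and the highest control mouse thus bracketed every mouse that received DSS. The DXM mice were all above the model mice, and so were 2 of the 3 Rhy mice.

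The model group was lower than the control group by the fit and not by the mean of logs. The fitted log2 fold change was -3.20 (SE 1.46, 95% confidence interval -6.39 to 0.00148, edgeR adjusted p = 0.517). The fit compares mean levels, and control 2 held 3654 of the 3845 reads of its group. The mean log2 CPM was 3.12 in the model mice and 3.01 in the control mice, a difference of 0.105 of the opposite sign (exact two-sided permutation test, p = 1). Without control 2 the fitted value turned to 0.85 (edgeR adjusted p = 0.891). The difference of mean logs turned to -2.57 without control 1, where the control mean was 5.69, and to -0.365 without model 3. The fitted value also turned without control 2 for all DSS groups together (-1.85, and 2.19 without control 2), for Rhy against control (-2.12, and 1.93) and for DXM against control (-0.25, and 3.79), none of which passed the adjusted threshold with or without it.

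**Figure D2:**
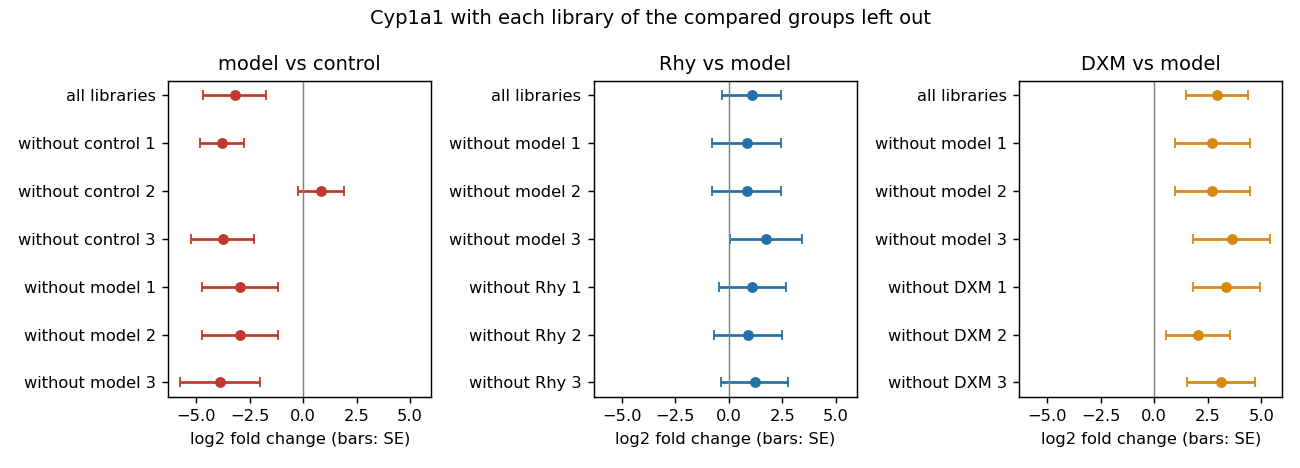
Fitted log2 fold change of Cyp1a1 in 3 comparisons, with all libraries and with each library of the compared groups left out; points are the edgeR values and bars the SE. Leaving out control 2 moved the model value from -3.20 to 0.85, while the DXM value stayed between 2.05 and 3.61 and the Rhy value between 0.84 and 1.75.

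Between the Rhy and model groups, where the study looked for an effect of Rhy, the Cyp1a1 level was 20.3 ± 4.51 CPM (SD, n = 3) against 9.62 ± 6.01 CPM. The fold was 2.11, with a 95% confidence interval of 0.262 to 17.1 (edgeR adjusted p = 1), and an exact permutation test of log2 CPM, two-sided, gave p = 0.2, where 0.1 is the smallest that 3 against 3 mice allow. The model mouse at 16.6 CPM, model 3, overlapped the Rhy group. It was also 1 of the 3 libraries with little Hoxb13. With only the 6 libraries of these groups in the fit, where the wide control spread has no part, the log2 fold change was 1.08 with an SE of 0.42 (edgeR adjusted p = 0.856).

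The DXM mice had 74.0 ± 61.1 CPM of Cyp1a1, 7.69-fold the model level by the fit. The log2 fold change was 2.94 (SE 1.45, 95% confidence interval -0.22 to 6.11, edgeR adjusted p = 0.66). The groups did not overlap, as was the case for 22.6% of all genes in this comparison, and an exact permutation test, two-sided, gave p = 0.1, the smallest possible. It stayed positive with every library left out. Fitted on the 6 libraries of the 2 groups, the value was 2.95 (SE 0.68, adjusted p = 0.188) in edgeR and 2.96 with an adjusted p of 0.0196 in DESeq2, the one call of a pathway gene in any setting tried. DXM against control overlapped, with a fold of 0.84 (95% confidence interval 0.111 to 6.34).

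**Figure D3:**
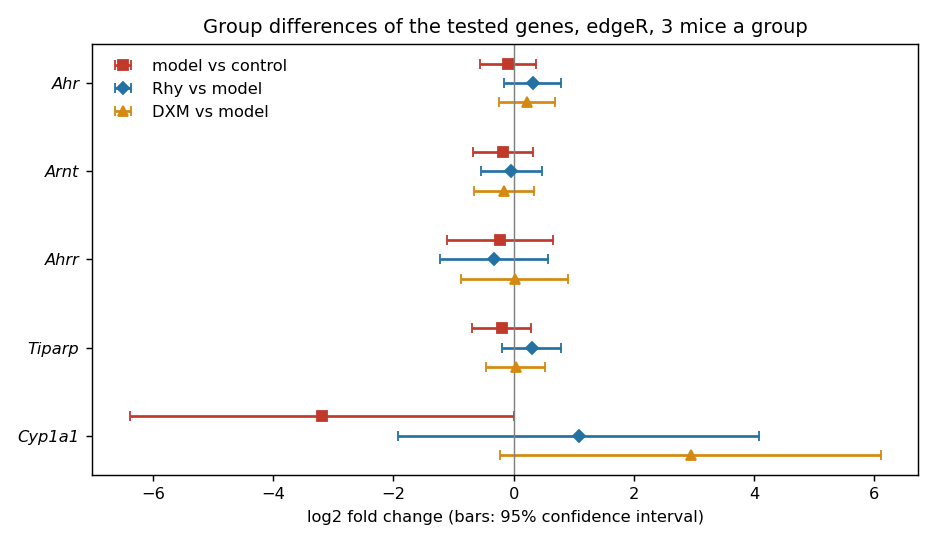
log2 fold changes of the 5 tested genes in model against control, Rhy against model and DXM against model, from edgeR with 3 mice a group; bars are 95% confidence intervals. Every interval reaches 0, and those of Cyp1a1 are the widest, from -6.39 to 6.11 over the 3 comparisons.

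The tissue content of the libraries moved along with some of these values, and its part in them was not tested. In bulk RNA, fewer cells of a type and less RNA per cell cannot be told apart. Control 2, with the most Cyp1a1, had the highest summed colon epithelial markers, 38720 CPM against 14730 to 31190 CPM in the others. It also had the highest small intestine markers, 1751 CPM over 6 genes against 58.1 to 1546 CPM. This sum was mostly Fabp2 (1499 CPM) and Alpi (240 CPM), while Fabp6, a gene of the ileum, was at 3.48 CPM in control 2 and 324 CPM in Rhy 3. Control 2 also had 1393 CPM of goblet cell markers, where 10 of the other libraries had 4597 to 11980 CPM and Rhy 1 had 1174 CPM. DXM 2, with the second most Cyp1a1, had 15640 CPM of the epithelial markers, among the lowest. Between the DXM and model groups, fibroblast markers were at 849.7 to 1783 CPM against 458.7 to 537.4 CPM, with 6 of 6 genes higher and 5 passing an unadjusted p under 0.05. Smooth muscle markers were at 4877 to 8811 CPM against 3519 to 4583 CPM. Neutrophil markers were at 198.2 to 282.4 CPM against 30.44 to 118.4 CPM, with 4 of 4 tested genes higher and 1 passing. Macrophage markers were at 78.67 to 197.9 CPM against 63.37 to 72.38 CPM, with 6 of 6 higher and 2 passing. No marker of these 4 lists had an adjusted p under 0.05. Without DXM 3, 2 fibroblast, 1 smooth muscle, 0 neutrophil and 0 macrophage markers passed the unadjusted threshold. Against the control mice, the model mice were higher in 0 of 4 tested neutrophil and 0 of 6 macrophage markers. Median log2 fold changes were -1.31 and -0.73, with 1 and 2 genes passing. The control mice had 3.294 to 687.3 CPM of neutrophil and 69.47 to 190 CPM of macrophage markers. Over all genes, 7.69% passed in DXM against model and 9.62% in model against control.

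Cyp1b1 (ENSMUSG00000024087, chr17:79706953-79715041, minus strand), which acts on many of the same substrates as Cyp1a1, was near the limit of detection. It had 2, 2 and 5 reads in the control mice, 8, 9 and 12 in the model mice, 3, 0 and 3 in the Rhy mice, and 9, 9 and 11 in the DXM mice. The model mice lay above every control and every Rhy mouse, and the DXM mice above every control mouse, while the Rhy and control mice overlapped. In CPM the groups had 0.188 ± 0.0753 (control), 0.567 ± 0.138 (model), 0.142 ± 0.131 (Rhy) and 0.536 ± 0.0935 (DXM) (SD, n = 3). Exact two-sided permutation tests gave p = 0.1 for model against control and for Rhy against model, the smallest that 3 against 3 allow. Among the tested genes, groups did not overlap in 17% between model and control, in 11.5% between Rhy and model, in 12.3% between Rhy and control and in 18.7% between DXM and control. With the filter lifted, edgeR gave a log2 fold change of 1.54 between model and control (SE 0.88, adjusted p = 0.821) and -1.99 between Rhy and model (SE 0.921, adjusted p = 0.956), the latter at an unadjusted p under 0.05. In this fit Cyp1a1 passed the unadjusted threshold in model against control (-3.185, SE 1.07, edgeR adjusted p = 0.482). It also passed in DXM against model (2.952, SE 1.06, edgeR adjusted p = 0.598). For all DSS groups against control Cyp1a1 passed as well (-1.842, SE 0.74, edgeR adjusted p = 0.302). In the filtered fit both values of Cyp1a1 against control turned direction without control 2.

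The first layer around the receptor is the complex that holds it in the cytosol, from which the chaperone genes Hsp90aa1, Hsp90ab1 and Ptges3 and the kinase gene Src are described. None of these 4 had an adjusted p under 0.05 in edgeR. Between model and control, 1 of them passed an unadjusted p under 0.05: Src was at 123 to 125 CPM in the model mice and at 164 to 236 CPM in the control mice (log2 fold change -0.68, SE 0.262, adjusted p = 0.488, edgeR). Between Rhy and model and between DXM and model none passed. Hsp90aa1 was at 153 to 278 CPM in the model mice and 108 to 174 CPM in the control mice, which overlapped (log2 fold change 0.61, SE 0.453, adjusted p = 0.694, edgeR).

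The partners of the same protein family, with the coactivators of AhR, were as flat. Of 14 genes 12 were tested, and in model against control, Rhy against model and DXM against model 0 had an unadjusted p under 0.05. The list median stayed between -0.14 and -0.05, beside medians of 0.01, -0.01 and -0.01 over all genes. Hif1a, the hypoxia factor that also needs ARNT, was at 81.2 to 99.9 CPM in the model mice, 53.4 to 187 CPM in the Rhy mice and 118 to 152 CPM in the DXM mice. Its log2 fold change between DXM and model was 0.57 (SE 0.367, edgeR adjusted p = 0.701).

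Of 12 other genes of foreign compound metabolism, listed as carrying AhR elements, 11 were tested, and Cyp1a2, the nearest relative of Cyp1a1, had no read in any library. Nfe2l2 encodes a transcription factor and the others enzymes. The elements of these genes were not examined here. Between DXM and model 9 of the 11 were lower and 2 higher, whereas Cyp1a1 was higher there. The median log2 fold change of the 11 was -0.71, beside -0.01 over all genes. At an unadjusted p under 0.05, 3 were lower and 0 higher (0 of either without DXM 3, a setting chosen after seeing the data), and 0 had an adjusted p under 0.05. Over all genes, 7.69% passed the unadjusted threshold in this comparison. Ugt1a1, which conjugates bilirubin, was at 9.16, 7.46 and 21.6 CPM in the model mice and 1.99, 1.74 and 0.3545 CPM in the DXM mice (log2 fold change -3.24, SE 1.15, adjusted p = 0.622, edgeR). Xdh, xanthine dehydrogenase, was at 67.0 to 75.4 CPM and at 25 to 62.4 CPM, a log2 fold change of -0.75 (edgeR adjusted p = 0.643). The third was Ugt1a6b, at -2.29 (edgeR adjusted p = 0.638). The Ugt1a genes share their last exons, so the division of reads between them is uncertain. Colon epithelial markers were lower in the same comparison for 10 of 11 genes, with a median log2 fold change of -0.23.

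Between model and control, 1 gene of the list, Xdh, passed an unadjusted p under 0.05 (log2 fold change -0.87, adjusted p = 0.479, edgeR), and 6 of 11 were lower. Between Rhy and model, Ugt1a6a did (-1.41, edgeR adjusted p = 1), and again 6 of 11 were lower. The medians were -0.29 and -0.04, beside 0.01 and -0.01 over all genes, of which 9.62% and 3.72% passed. The control mouse with 254 CPM of Cyp1a1 was also the highest of the 12 libraries for Xdh, Cyp2s1 and Ugt1a6a, 3 of the 11 genes, and for Arnt and Tiparp. It was the highest library for 11.1% of all tested genes. DXM 2, with 142 CPM of Cyp1a1, ranked 12 for Cyp2s1, 11 for Xdh and 6 for Ugt1a6a.

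**Figure D4:**
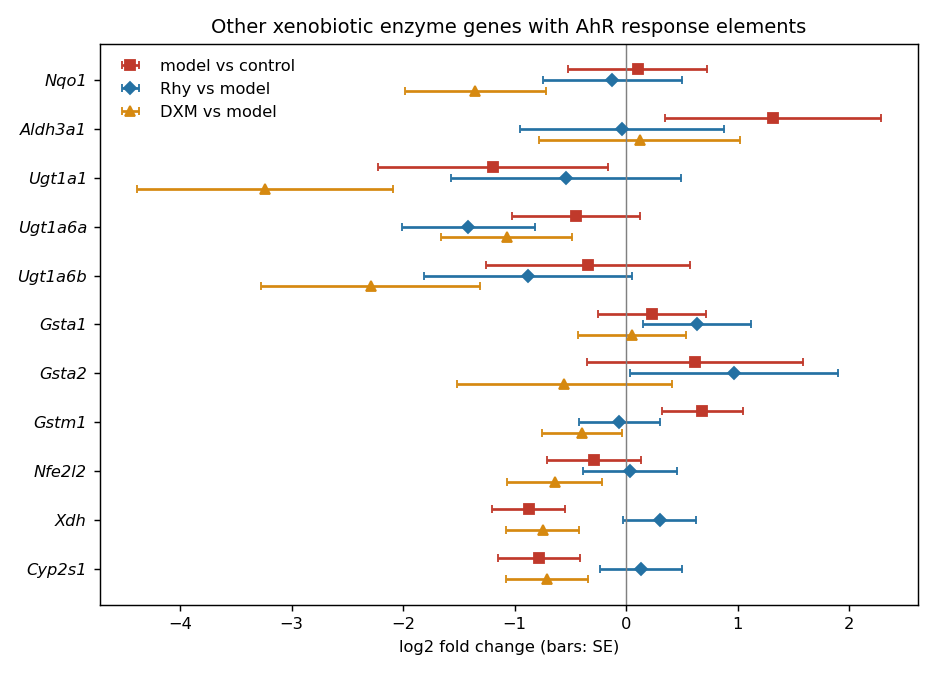
log2 fold changes of 11 other genes of foreign compound metabolism, listed as carrying AhR elements, in 3 comparisons, from edgeR with 3 mice a group; bars are the SE. In DXM against model 9 of 11 points lie below 0, with Ugt1a1 lowest at -3.24.

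Among 16 genes tied to AhR in gut and immune cells, 12 were tested. Il22, the cytokine of innate lymphoid and T cells that AhR helps to induce, had 0 reads in the 3 model mice, 0, 13 and 2 in the Rhy mice, 2, 31 and 35 in the DXM mice, and 2, 3 and 0 in the control mice. It passed an unadjusted p under 0.05 in Rhy against model (edgeR adjusted p = 1) and in DXM against model (edgeR adjusted p = 0.622). In the Rhy group 1 mouse carried most of these reads. The filter on low counts kept Il22 through its reads in Rhy and DXM mice, as the model mice had none. Such a choice favours genes that are higher in these groups than in the model group. These passes thus cannot decide whether Il22 differed. Ereg, an epidermal growth factor ligand, and Ptgs2, the inducible cyclooxygenase, were the other 2 to pass in DXM against model (log2 fold change 1.62 and 1.44, adjusted p = 0.637 each, edgeR), and without DXM 3 Il22 alone passed there. Over all genes, 7.69% passed in DXM against model. Neutrophil and macrophage markers were higher in the same comparison. Group 3 innate lymphoid cell markers, a list that includes Il22, summed to 82.96 to 117.9 CPM in the DXM mice and 92.63 to 103 CPM in the model mice, with 4 of 5 tested genes higher. T cell markers summed to 20.68 to 38.29 CPM and 30.28 to 57.48 CPM, with 4 of 8 higher. The part of these cells in the comparison was not tested. Ccng2, a cyclin gene, passed between model and control (-0.90, adjusted p = 0.459, edgeR). Of 12 enzymes that make or remove tryptophan-derived ligands 9 were tested, and 1 passed an unadjusted p under 0.05: Ddc, between model and control (log2 fold change 0.63, adjusted p = 0.499, edgeR). Ido1, which opens the kynurenine route, ranged from 0.348 to 29.2 CPM within the control group alone.

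The study placed Nr4a1 and the tight junction genes Tjp1 (ZO-1), Ocln and Cldn4 downstream of AhR. Between model and control Tjp1 (log2 fold change -0.63, adjusted p = 0.479) and Ocln (-0.51, adjusted p = 0.511) passed an unadjusted p under 0.05 in edgeR, and between Rhy and model none of the 4 did. Without control 2, a setting chosen after seeing the data, neither passed (-0.37 and -0.41). Colon epithelial markers were lower in model against control for 10 of 11 genes, with a median log2 fold change of -0.33, 2 passing an unadjusted p under 0.05 and 0 an adjusted one, and their part in it was not tested. Nr4a1, which belongs to the immediate early genes that respond quickly to many signals, was at 15.3, 12.5 and 13.9 CPM in the model mice, 11.2, 33.8 and 63.5 CPM in the Rhy mice and 25.4, 25.5 and 221 CPM in the DXM mice. The DXM mice were all above the model mice (log2 fold change 2.71, SE 0.827, adjusted p = 0.622, edgeR), and the value was 0.87 without DXM 3. The Rhy and model mice overlapped in Nr4a1, with a log2 fold change of 1.38 (SE 0.795, unadjusted p = 0.108, edgeR). In the same comparison it was 0.29 for Tjp1, 0.26 for Ocln and -0.19 for Cldn4. Of 17 other immediate early genes 7 passed an unadjusted p under 0.05 in DXM against model, all higher (Fos, Egr1, Egr3, Dusp1, Cyr61, Nr4a2 and Nr4a3, with log2 fold changes of 0.98 to 2.61 and edgeR adjusted p of 0.622 to 0.637). Their summed level was 1372, 917.6 and 1939 CPM in DXM 1, DXM 2 and DXM 3, against 933.6 to 1060 CPM in the model mice, so DXM 2 was below every model library. Without DXM 3, a setting chosen after seeing the data, 2 of the 17 passed, Cyr61 and Egr3, and Nr4a2 went from 1.76 to 0.16. In model against control 7 passed, all lower (Jun, Junb, Egr1, Dusp1, Zfp36, Btg2 and Cyr61, from -1.74 to -0.77, edgeR adjusted p 0.459 to 0.49), and in Rhy against model 0 did. Over all genes, 7.69% passed in DXM against model, 9.62% in model against control and 3.72% in Rhy against model.

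Whether the pathway genes moved together was asked over 11 samples, with model 1 and model 2 averaged, in 11 relations. Ahr and Nr4a1 gave Pearson's r = 0.804 (permutation p = 0.0021, adjusted p = 0.0231) and Spearman's rho = 0.664 (permutation p = 0.0311, adjusted p = 0.342). Rhy 3 and DXM 3, with the most Ahr, were also the 2 samples with the most Nr4a1, and r was 0.442 without them, so the relation across samples rests in part on these mice. Within groups, as deviations from the group means, r was 0.878 (permutation p = 0.032, adjusted p = 0.294), and 0.737 without Rhy 1 and DXM 3, the samples farthest from the median there. Dusp6, Jak1 and Cpm had a higher r with Ahr across the 11 samples (0.884, 0.865 and 0.862). The adjustment covers the 11 relations only. How many of all genes reach 0.804 with Ahr was not examined, so this r does not set Nr4a1 apart from other genes. Tiparp with the mean of the immediate early genes gave r = 0.316 (permutation p = 0.36, adjusted p = 0.792).

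Cyp1a1 showed no relation that passed the adjusted threshold. With Ahr it had r = 0.421 and rho = 0.473 (permutation p = 0.206 and 0.147, adjusted p = 0.565 and 0.808), and r was 0.19 without control 1 and control 2, the samples farthest from the median of Cyp1a1. With Tiparp r was 0.492 (rho 0.373) and with Arnt 0.459 (rho 0.1), and without these 2 control mice both turned negative, to -0.166 and -0.497. With Ahrr, Cyp1b1, Nr4a1, Tjp1, Ocln and Cldn4 r lay between -0.0295 and 0.236, rho between -0.236 and 0.182, and the permutation p between 0.435 and 0.947 for r and between 0.486 and 0.924 for rho. Without these control mice r was -0.67 with Cldn4, -0.649 with Ocln, -0.194 with Tjp1, -0.132 with Ahrr, 0.0745 with Cyp1b1 and 0.352 with Nr4a1. The adjusted p of the 9 relations of Cyp1a1 were 0.565 to 0.947 for r and 0.808 to 0.924 for rho. Within groups r with Ahr was 0.378, with Arnt 0.75 and with Tiparp 0.705 (permutation p = 0.28, 0.228 and 0.149), and 0.0748, -0.0193 and 0.112 without control 1 and control 2.

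**Figure D5:**
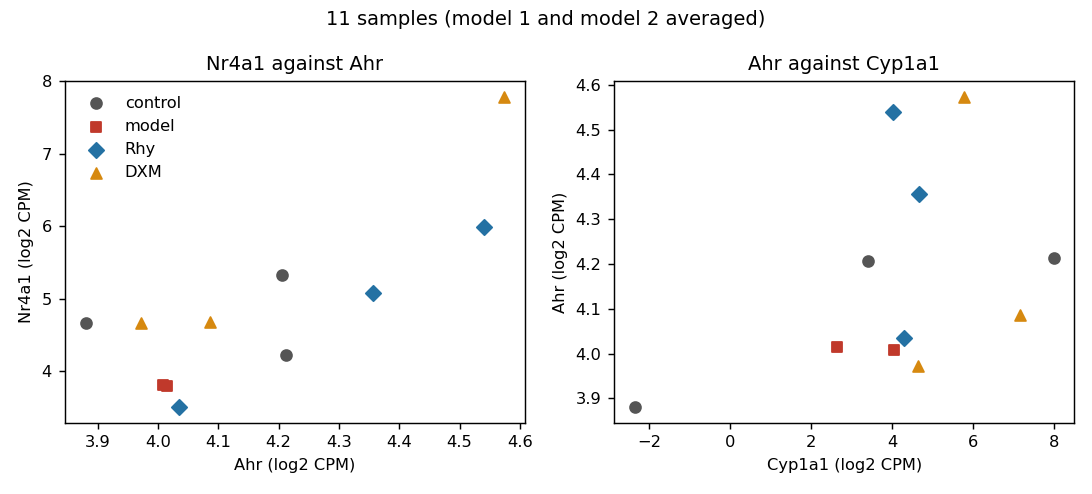
Nr4a1 against Ahr (left) and Ahr against Cyp1a1 (right) in log2 CPM over 11 samples, 1 point a sample, colored by group, with model 1 and model 2 averaged. Rhy 3 and DXM 3 lie at the upper right on the left, where r was 0.804 with them and 0.442 without, and control 1 lies far to the left of the other samples on the right.

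The genes most like each pathway gene over these 11 samples, given as a description, were Dusp6, Jak1 and Cpm for Ahr (r = 0.884, 0.865 and 0.862) and Kctd3, Enpp4 and Zfp574 for Arnt (r = 0.975, 0.965 and 0.965). For Ahrr they were Arhgap22, Scamp1 and Dclre1a (r = 0.862, 0.858 and 0.85), and for Tiparp Tax1bp3, Rras2 and Gm11992 (r = 0.887, 0.821 and 0.807). For Cyp1a1 they were Pigp, Zfp133-ps and Gm45769 (r = 0.912, 0.879 and 0.878), and for Cyp1b1 Gm17029, Hist2h2be and Aoc3 (r = 0.901, 0.867 and 0.864). No pathway gene was among the 3 closest of another. The points share their library, and the best of 16904 genes is high by selection.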

How the data were processed

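RNA-Seq of 12 mouse colons was analysed from the raw read counts per gene that the authors deposited, with the FPKM values deposited by the authors, which were proportional to count over gene length, used only for levels between genes. The submitters' processing notes name HISAT2 2.0.5, featureCounts 1.5.0-p3, DESeq2 1.16.1 and mm10. Strand use in counting is not given in the sources used here. Genes were filtered with filterByExpr (minimum count 10), scaled by TMM and tested with edgeR 4.0.16 in R 4.3.3 (glmQLFit and glmQLFTest, 4 group means, two-sided). The SE is the log2 fold change over the square root of F. DESeq2 1.42.0 served as an alternative. log2 CPM carried a prior count of 2. Relations used 100000 resamples. The members, gene lists and alternatives were chosen with earlier results of these data known. Genes named were the 6 members, the 3 most like each, list genes with an unadjusted p under 0.05 in model against control or in Rhy or DXM against model, and up to 4 others a list with the highest mean CPM. A gene of the list of the cytosolic complex, and that list's counts and medians, are not reported here. The fits were tested on simulated data. In the fit of all 12 libraries the p-values rest on the spread within groups, estimated for each gene over all 4 groups together. A wide spread in 1 group, as of Cyp1a1 in the control mice, thus enters comparisons of the other groups. Intervals on counts cover counting error only.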

Additional observations from a re-analysis of the deposited data

How the results depend on the processing

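Of 440 values of log2 fold change under alternatives, 417 kept their direction and their side of the threshold, 22 turned direction, and 1 came past the threshold: Cyp1a1 in DXM against model, called only by DESeq2 on the groups compared (2.96, 1 pathway gene against 0). With each library left out in turn, the fold changes that turned ran from -3.89 to 0.85 for Cyp1a1 in model against control, -2.70 to 1.93 in Rhy against control, -1.15 to 3.79 in DXM against control and -2.44 to 2.19 for all DSS groups. For Arnt in Rhy against model the range was -0.19 to 0.069. For Ahr it was -0.077 to 0.24 in DXM against control and -0.017 to 0.14 for all DSS groups. For Tiparp it was -0.077 to 0.27 in Rhy against control, -0.14 to 0.14 in DXM against model and -0.27 to 0.077 for all DSS groups. For Ahrr it was -0.17 to 0.27 in DXM against model and -0.36 to 0.048 in DXM against control.

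The replicate block gave 0.73 for Cyp1a1 in DXM against control. Deviations of 18 same-number pairs correlated at -0.31 to 0.363, with 6 over 0.1. Pairs of different numbers were not examined, so these values cannot decide whether the numbers pair the mice. Model 1 and model 2 as 1 library gave -0.0070 for Tiparp in DXM against model. Only the 9 libraries with Hoxb13 at 5 CPM or more, a choice made after seeing the data, gave Ahrr 0.14 in model against control, -0.17 in DXM against model and 0.0097 for all DSS groups. The cause of these turns was not tested.

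Over all genes, 0 passed the adjusted threshold in every comparison of the fit reported. With any count kept, 1 did in model against control, 1 in Rhy against control, 13 in DXM against control and 44 for all DSS groups. DESeq2 on all libraries called 46, 32 and 1059 for the model, Rhy and DXM groups against control, 748 for all DSS groups, and 5 and 51 for Rhy and DXM against model. On only the groups compared, edgeR called 1 in model against control and 2 in DXM against model, and DESeq2 called 167, 2 and 395 for the model, Rhy and DXM groups against control, and 44 and 590 for Rhy and DXM against model. The Hoxb13 setting called 2 in DXM against model and 350 for all DSS groups. With a library left out the counts were 0 to 1 in model against control and in Rhy against model, 0 to 4 in DXM against control and 0 to 27 for all DSS groups. At an unadjusted p under 0.05, the count in Rhy against model was 628, and 283 with model 1 and model 2 as 1 library, 972 with any count kept, 1021 with DESeq2 on the groups compared and 1453 in the Hoxb13 setting. In model against control it was 1626, and 866 and 2686 with the first and the last of these. In DXM against model it was 1300, and 736 with the first, 2514 with edgeR and 2644 with DESeq2 on the groups compared. In Rhy against control it was 1953, and 999 and 1163 with these pairwise fits and 3715 in the Hoxb13 setting. With a library left out, the counts ran from 289 (without model 1) to 1066 (without Rhy 1) in Rhy against model, 888 (without model 1) to 2811 (without control 3) in model against control, 537 (without DXM 3) to 1594 in DXM against model, 1195 (without Rhy 2) to 2938 (without control 3) in Rhy against control, 1639 (without DXM 3) to 4075 in DXM against control and 1775 (without control 2) to 3704 for all DSS groups.

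Of the relations, those of Cyp1a1 with Ahrr, Cyp1b1, Nr4a1 and Ocln turned direction as deviations from group means (r = 0.0541, -0.0687, -0.0971 and 0.521), and with Ahrr and Ocln in the Hoxb13 setting (r = 0.0275 and 0.0224). Ahr with Nr4a1 no longer passed in either (r = 0.878 and 0.789). Depth limits Cyp1b1, at 0 to 12 reads a library.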
